A study of Mus musculus with 14 samples.

Results

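Platelet and megakaryocyte genes are described here in single cells of a mouse melanoma study. The group holds 9 genes of the 21138 in the count table, taken by name: Pf4, Ppbp, Gp9, Itga2b, Gp1ba, Gp1bb, Treml1, Itgb3 and Clu. Every member had a row in the table, and every member had counts in at least 1 cell. Platelets are anucleate fragments that megakaryocytes shed into blood, and they carry RNA and protein made in the megakaryocyte. Pf4 and Ppbp encode chemokines stored in platelet alpha granules. Gp1ba, Gp1bb and Gp9 encode chains of the receptor that binds von Willebrand factor, and Itga2b with Itgb3 encodes the fibrinogen receptor. Treml1 encodes a receptor of platelet granules, and Clu encodes clusterin, a secreted chaperone that platelets carry and that many other cells also make. Pf4 is also made by some tissue macrophages, and Itgb3 pairs with other integrin chains in many cell types, so neither gene marks platelets by itself.

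Each of the 648 cells, from 14 samples, had its own full-length RNA library, made by the plate method Smart-seq2. The 9 tumor samples, numbered here as replicates 1 to 9, came from female C57BL/6J mice of 6 to 8 weeks that had received an injection of cultured B16F10 melanoma cells, a line of that strain that carried a fluorescent label. Blood and lung were sorted by tumor and host markers, which the labels do not name, into classes called CTC (43 cells, 5 samples), DP (450 cells, 9 samples) and WBC (46 cells, 6 samples). The series title speaks of candidate hybrids of tumor cells and leukocytes in the circulation. The 5 controls had 1 sample each: cultured B16F10 (22 cells), and 4 samples labelled naive from female C57BL/6J mice of 6 to 8 weeks, called CDP (18 cells), Duplike (24), PltLike (24) and WBC (21, here naive WBC). The labels do not say what CDP, Duplike and PltLike stand for, nor whether each sample is an animal of its own, and p-values then reflect only the spread between these samples, which may be technical. All tumor cells injected came from 1 line, and the labels name no further treatment.

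Values are CPM, a gene's counts scaled by the total of the same cell, or CPM of the summed counts of a sample, and a gene was called seen in a cell at 10 CPM or more. Counts per cell ranged from 20525 to 104170496, with a median of 15.8 megacounts (Mcounts). Cells were split into 2 branches by clustering that left the platelet genes and all leukocyte marker lists out. The branch with the melanocyte genes is called tumor-high and the rest the other branch. The tumor-high branch held 272 of 450 DP cells (200 of blood, 72 of lung) and 42 of 43 CTC, and the other branch held all 46 WBC. The summed level of 12 melanocyte genes had a median of 28503 CPM in tumor-high DP cells of blood, 33322 CPM in those of lung and 127 CPM in other-branch DP cells of blood. Median depth was alike in tumor-high DP cells of blood (18.9 Mcounts) and lung (20.1 Mcounts) and in CTC of blood (18.3 Mcounts), higher in CTC of lung (29.7 Mcounts) and lower in other-branch DP cells (6.83 Mcounts), WBC (4.93 Mcounts) and naive WBC (1.05 Mcounts). No pair of cells had identical counts, and the intervals given for shares of cells are exact binomial 95% intervals, which cover counting error only.

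The 2 chemokine genes lie side by side. In GRCm38, Pf4 spans bases 90772435 to 90773383 of chromosome 5 and Ppbp bases 90768518 to 90770063, both protein-coding, on the plus strand and 2371 bases apart, and Gp9 spans bases 87778072 to 87779768 of chromosome 6, also on the plus strand. The 250 bases before the start of each are printed because these are the genes on which the account turns, as RefSeq gives them on GRCm38.p6. The Pf4 window is chr5:90772185-90772434, the Ppbp window chr5:90768268-90768517 and the Gp9 window chr6:87777820-87778069, all on the plus strand. Capitals mark the letters searched on both strands, GATAA (reverse TTATC), the core read by GATA factors, and GGAAGT (reverse ACTTCC), a core read by ETS factors, which do not overlap each other here.
Pf4: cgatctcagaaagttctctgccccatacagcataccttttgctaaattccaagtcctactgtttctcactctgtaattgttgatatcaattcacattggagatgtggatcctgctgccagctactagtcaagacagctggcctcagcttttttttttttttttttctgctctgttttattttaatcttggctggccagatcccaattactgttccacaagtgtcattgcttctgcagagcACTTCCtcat
Ppbp: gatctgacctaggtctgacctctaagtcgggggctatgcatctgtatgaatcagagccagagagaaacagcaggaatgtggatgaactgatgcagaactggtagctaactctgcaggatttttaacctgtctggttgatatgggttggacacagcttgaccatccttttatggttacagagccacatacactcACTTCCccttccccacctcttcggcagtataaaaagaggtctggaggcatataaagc
Gp9: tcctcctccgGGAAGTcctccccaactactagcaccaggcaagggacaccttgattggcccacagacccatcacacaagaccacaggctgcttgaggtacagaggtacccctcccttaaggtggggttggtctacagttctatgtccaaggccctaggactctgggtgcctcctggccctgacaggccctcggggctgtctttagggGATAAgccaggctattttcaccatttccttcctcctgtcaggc
The ETS core stood 10 bases before the Pf4 start and 57 bases before the Ppbp start, and Gp9 held both cores, 240 and 43 bases before its start. Of the 7 windows matched, Itga2b also held the ETS core (26 bases before its start), Gp1ba held the GATA core at 103 and 51 bases and no ETS core, and Gp1bb and Treml1 held neither. Of 32851 windows of this length, 22.6% held the GATA core, 19.7% the ETS core and 4.23% both. These matches describe the letters only. Windows were matched for 7 of the 9 members; Itgb3 and Clu had no entry.

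In tumor-high DP cells of blood, platelet genes were seen in a minority of cells and at moderate levels. Pf4 was seen in 42 of 200 cells (21.0%, interval 15.6 to 27.3), with a median of 21.95 CPM in the cells where it was seen and a highest value of 340 CPM. Ppbp was seen in 36 cells (18.0%, 12.9 to 24.0), with a median of 39.5 CPM and a highest value of 208 CPM. Both chemokines thus reached about the same number of these cells, while no CTC held either at that level. Of tumor-high CTC, 0 of 28 of blood and 0 of 14 of lung had 10 CPM of Pf4 or Ppbp. The interval runs up to 8.41% for the 42 together and is wider for the 28 of blood, the group of the same tissue. Of the receptor for von Willebrand factor, Gp9 was seen in 17 cells (8.5%, median 21.5 CPM where seen), Gp1bb in 12 (6.0%, 19.9 CPM) and Gp1ba in 1 (0.5%, 12.2 CPM). The chain that binds the ligand, Gp1ba, was thus the least often seen member of that receptor and of all 9 genes. Gp1bb shares 91.1% of its exonic bases with Sept5 and 41.5% with Gm49601 on the same strand (chromosome 16, bases 18620317 to 18622403), so its counts are uncertain. Itga2b, the alpha chain of the fibrinogen receptor (chromosome 11, 102453297 to 102470122), was seen in 16 cells (8.0%, 56.4 CPM where seen, highest 391 CPM), and Treml1 in 8 (4.0%, 26.9 CPM).

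Itgb3 and Clu behaved otherwise. Itgb3, the beta chain, was seen in 43 of 200 tumor-high DP cells of blood (21.5%), in 12 of 72 of lung (16.7%), in 8 of 42 CTC and in 7 of 22 cultured B16F10 cells, so cells of the tumor line itself held it. Clu was seen in 33 of 200 cells of blood (16.5%, 46.9 CPM where seen), 7 of 72 of lung (9.72%) and 2 of 42 CTC, and in 0 of 22 B16F10 cells. Itga2b was seen in 3 of the 22 B16F10 cells, with a highest value of 32.5 CPM, and Gp1ba in 1 of them, so those 2 members were also seen in the tumor line. Pooled Itga2b stood at 5.37 CPM in B16F10 and 7.40 CPM in tumor-high DP cells of blood, and pooled Gp1ba at 0.619 and 0.133 CPM. Neither gene thus marks platelet RNA by itself here. Pf4, Ppbp, Gp9, Gp1bb and Treml1 were seen in 0 of 22 B16F10 cells, an interval of up to 15.4%. Per kilobase of exon, the pooled level in tumor-high DP cells of blood was 13.4 CPM for Pf4, 7.78 for Ppbp, 3.27 for Gp9, 3.23 for Clu, 2.34 for Itgb3, 1.36 for Itga2b, 0.765 for Treml1, 0.707 for Gp1bb and 0.0491 for Gp1ba. These pooled levels mix cells with and without the genes and carry no spread, and the values of each sample follow.

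**Figure D1:**
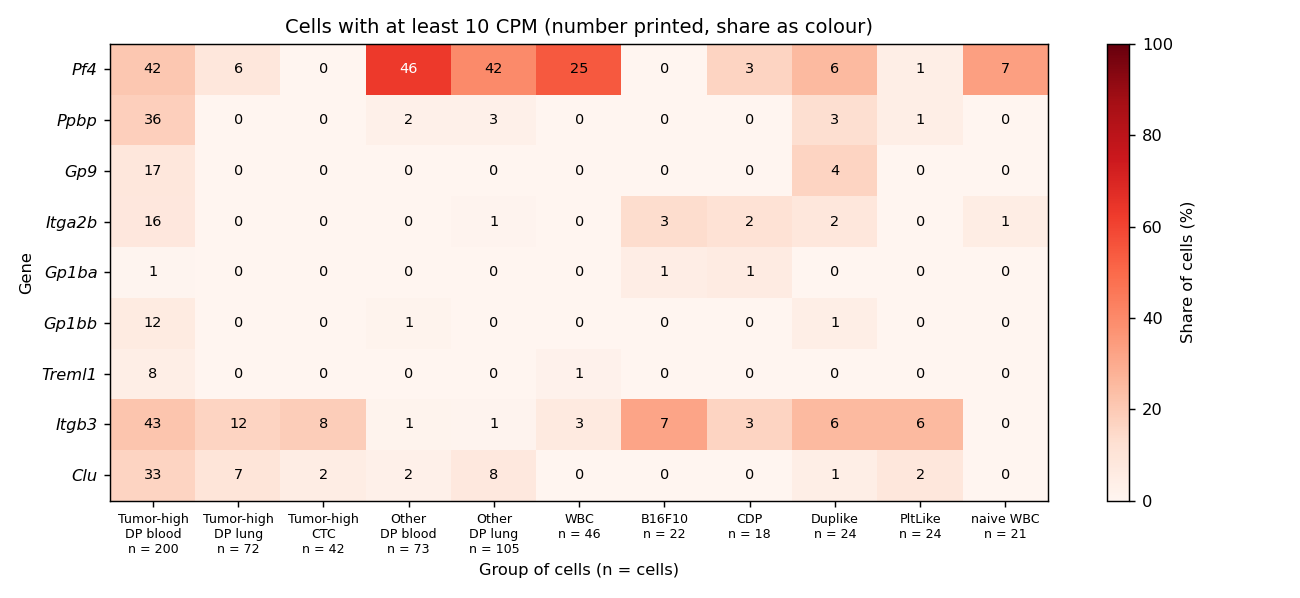
Number of cells in which each of the 9 genes (rows) had at least 10 CPM, printed in each box, with the share of cells as the colour, for 11 groups of cells (columns, n = cells). Ppbp and Gp9 were seen in 36 and 17 of 200 tumor-high DP cells of blood and in 0 of 72 of lung and 0 of 42 CTC, while Pf4 was also frequent in other-branch DP cells, WBC and naive WBC.

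The genes were unevenly spread over samples. In the tumor-high DP cells of blood of replicates 1, 2, 3, 5, 6, 7 and 9 (30, 13, 21, 39, 73, 11 and 13 cells), Pf4 stood at 9.21, 5.13, 14.9, 7.35, 0.748, 2.89 and 53.8 CPM of the summed counts. Ppbp stood at 9.14, 0.0318, 17.9, 14.2, 0.640, 0.00360 and 35.8 CPM in the same samples. Replicates 1, 3, 5 and 9 were thus high for both chemokines, and replicates 6 and 7 were low. Gp9 stood at 2.20, 1.65, 4.10, 6.10, 1.26, 0.223 and 8.17 CPM. Itga2b stood at 9.37, 0.00867, 14.8, 5.78, 0.182, 1.33 and 40.4 CPM. The samples highest for Ppbp were also the 4 highest for Gp9 and Itga2b, and replicate 9 was the highest for Pf4, Ppbp, Gp9 and Itga2b. Itgb3 did not follow this order: it stood at 8.14, 6.66, 15.2, 13.5, 11.7, 26.0 and 17.9 CPM, highest in replicate 7. Clu stood at 9.03, 1.63, 21.7, 9.77, 4.82, 21.5 and 21.8 CPM, also high in replicate 7, where Ppbp was nearly absent. The rarer members ranged from 0 to 6.89 CPM for Gp1bb (highest in replicate 9), 0 to 4.01 CPM for Treml1 (replicate 5) and 0 to 0.252 CPM for Gp1ba (replicate 1). By cells, Pf4 was seen in 8, 3, 11, 13, 1, 1 and 5 cells of these samples and Ppbp or Gp9 in 10, 1, 11, 12, 2, 0 and 4. Replicate 6 gave 73 of the 200 cells and only 2 of the 40 with Ppbp or Gp9.

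**Figure D2:**
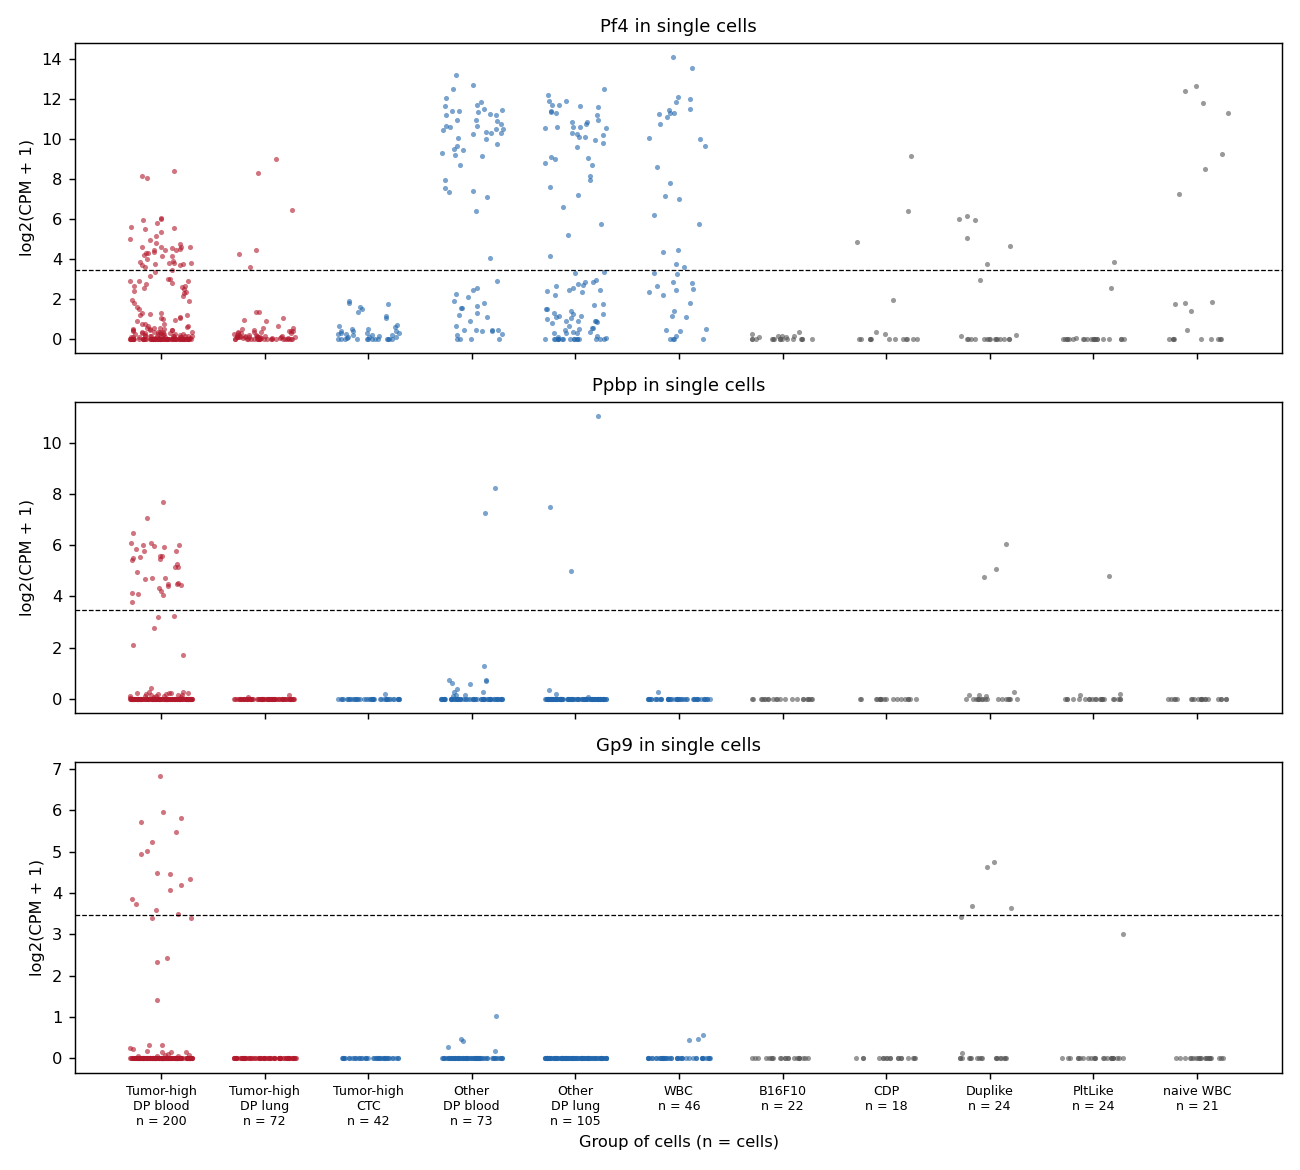
Pf4, Ppbp and Gp9 in single cells, as log2(CPM + 1), by group of cells; each point is 1 cell and the dashed line marks 10 CPM. Most cells with Ppbp or Gp9 above the line are tumor-high DP cells of blood, the largest of these groups, and 6 of 24 Duplike cells also had Ppbp or Gp9. Pf4 reaches its highest values in other-branch DP cells and WBC.

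Pf4 occurred in tumor-high DP cells together with Ppbp or Gp9 in some cells, with macrophage genes in others, and with neither in the rest. Macrophage genes were called seen where at least 3 of a list of 10, which includes C1qa, C1qb, C1qc, Csf1r, Adgre1, Lyz2, Fcgr1, Mrc1 and Ms4a7, had 10 CPM. Of 48 tumor-high DP cells with Pf4, 22 had Ppbp or Gp9 and no macrophage genes, 7 had macrophage genes and neither Ppbp nor Gp9, 2 had both and 17 had neither. The first kind lay in blood in full (22 of 22 cells), and 7 of the 24 cells with Pf4 and Ppbp or Gp9 had all 3 genes. The macrophage kind comprised 3 cells of blood, all of replicate 2, and 4 of the 6 Pf4 cells of lung. Pf4 with Ppbp or Gp9 was seen in 5, 0, 6, 9, 0, 0 and 4 cells of replicates 1, 2, 3, 5, 6, 7 and 9, and the whole Pf4 signal of replicate 2 at 10 CPM came with macrophage genes (3 of 3 cells). With the limit at 100 CPM for Pf4 and its partners alike, 5 cells had Pf4. Of these, 4 had macrophage genes and 1 had Ppbp or Gp9, a split that depends on the higher limit for the partners. With partners at 10 CPM, Pf4 reached 260 CPM in a blood cell with Ppbp or Gp9 and 283 CPM in a blood cell with both kinds of partner. The highest values with macrophage genes alone were 340 CPM in blood and 506 CPM in lung.

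The 2 kinds differed widely in the macrophage genes, as the rule requires, and the values show by how much. The 38 blood cells with Ppbp or Gp9 and no macrophage genes, from 6 samples, include the first kind and further cells without Pf4. They had a summed macrophage level of 0 to 182 CPM with a median of 17.6 CPM. Lyz2, a lysozyme of myeloid cells, was the only one of the 10 seen in any of them. The 3 blood cells with Pf4 and macrophage genes had 1999 to 9654 CPM with a median of 8142 CPM, and the 4 lung cells 165 to 11435 CPM with a median of 5170 CPM. Pf4 itself had a median of 12.7 CPM over the 38 cells and a highest value of 260 CPM, against a highest value of 506 CPM in the lung cells with macrophage genes. None of 6 neutrophil genes was seen in the 38 cells, and 6 pan-leukocyte genes summed to a median of 2.31 CPM (0 to 490 CPM, with all 6 seen in some cell), against 1069 CPM in the 3 blood cells with macrophage genes. Of 7 erythroid genes Hba-a1 and Hbb-bs, which encode globin chains, were seen among the 38 cells. The part of these leukocyte and erythroid genes, and of cells sorted together, in the result was not tested. The melanocyte sum of the 38 cells had a median of 35044 CPM, within the range of 1380 to 77113 CPM of tumor-high DP cells of blood. It was 13059 CPM in the 3 blood cells with Pf4 and macrophage genes and 23781 CPM in the 4 of lung. Those 3 blood cells were shallower, at 0.645 to 18.9 Mcounts (median 4.75), against a median of 19.0 Mcounts in the 38. Among the 3, all 5 B-cell genes (sum up to 4853 CPM) and 3 of 6 neutrophil genes (up to 1422 CPM) were seen. The 15 blood cells with Pf4 and neither kind of partner had a macrophage sum with a median of 4.01 CPM, and 3 of them had Itga2b, 3 Gp1bb and 5 Tubb1, which encodes the beta tubulin of platelets.

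**Figure D3:**
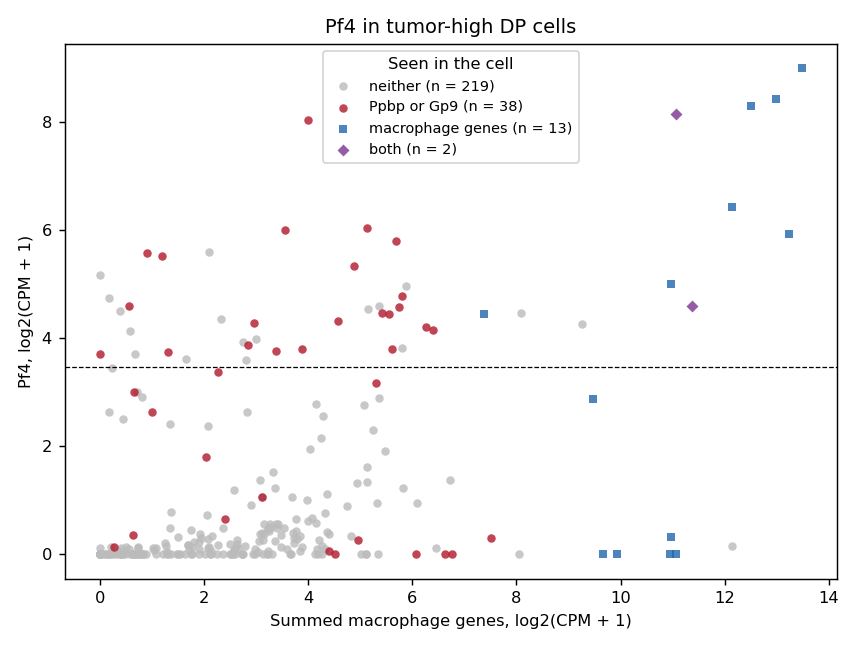
Pf4 against the summed level of 10 macrophage genes, both as log2(CPM + 1), in 272 tumor-high DP cells; each point is 1 cell, coloured by what else was seen in it, and the dashed line marks 10 CPM of Pf4. Cells with Ppbp or Gp9 lie at low macrophage sums except for the 2 cells with both, and the cells with the highest Pf4 include those with high macrophage sums.

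In pooled counts, cells with Pf4 more often held Ppbp, Gp9, Itga2b, Gp1bb, Treml1 and Clu than cells without it, while the shares for Itgb3 were close. Among tumor-high DP cells of blood, Ppbp was seen in 23 of 42 cells with Pf4 (54.8%) and 13 of 158 without (8.23%). Itga2b was seen in 12 of 42 (28.6%) against 4 of 158 (2.53%), Gp1bb in 9 (21.4%) against 3 (1.90%), Gp9 in 8 (19.0%) against 9 (5.70%) and Treml1 in 6 (14.3%) against 2 (1.27%). Clu stood at 11 of 42 (26.2%) against 22 of 158 (13.9%), and Itgb3 at 10 (23.8%) against 33 (20.9%). Lyz2 was likewise seen in 22 of 42 cells (52.4%) against 34 of 158 (21.5%) and Hba-a1 in 12 (28.6%) against 4 (2.53%). These counts pool cells of 7 samples that differed widely in level, so they are given with no test. Of the 6 members other than Pf4, Itgb3 and Clu, 148 of the 200 cells held none, 31 held 1, 9 held 2, 8 held 3, 3 held 4 and 1 held 5. Among the 40 cells with Ppbp or Gp9, 20 held 1 of the 6 and 20 held more.

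Of 24 further platelet and megakaryocyte genes, 17 were seen in a higher share of the 40 tumor-high DP cells of blood with Ppbp or Gp9 than of the other 160, 5 (Gng11, Gata1, Slc35d3, Pear1 and Rasgrp2) in a lower share and 2 in neither set. Of the list, 17 were not seen in any tumor-high CTC or B16F10 cell, and 13 of those 17 were seen among the 40 blood DP cells with Ppbp or Gp9, 10 among the other 160 and 2 among the 72 of lung. The share of all genes seen more often in the 40 cells was not computed. The 2 sets also differ by sample, since replicate 6 gave 73 of the 200 cells and 2 of the 40. Nothing particular to platelet genes is therefore read from these counts. The genes that follow were picked after their values were seen. Clec1b, the receptor for podoplanin on platelets, was seen in 12 of 40 cells against 5 of 160, and Alox12, the platelet lipoxygenase, in 9 against 5. Tubb1 was seen in 8 against 8. Tubb1 or Clec1b was seen in 15 of 40 cells (37.5%), in 12 of 160 (7.5%), and in 0 of 72 of lung, 0 of 42 CTC and 0 of 22 B16F10 cells. The megakaryocyte transcription factor gene Gata1 was seen in 1 of the 200 cells, Nfe2 in 1 and Gfi1b in 0. Gng11 and Pear1, also on the list, were seen in 197 and 115 of the 200 cells and in 21 and 20 of 22 B16F10 cells, so they do not separate platelet RNA from that of the tumor line. Median depth was 19.1 Mcounts in the 40 cells and 18.7 Mcounts in the 160.

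The share of tumor-high cells with platelet genes was compared between DP and CTC within the 5 samples that held both, with blood and lung pooled. Ppbp or Gp9 was seen in 33.3%, 7.69%, 50.0%, 27.3% and 2.74% of tumor-high DP cells of replicates 1, 2, 3, 5 and 6 and in 0% of the CTC of each. The mean was 24.2% ± 19.3 (SD, n = 5) against 0%, higher in 5 of 5 samples, with an exact two-sided sign-flip permutation p of 0.0625, the smallest that 5 samples allow. Pf4 was seen in 26.7%, 23.1%, 54.5%, 31.8% and 1.37% of the DP cells against 0% of the CTC, 27.5% ± 19.1 (SD, n = 5), higher in 5 of 5 samples, with the same exact permutation p of 0.0625. At 100 CPM the differences shrank to 0.274 points for Ppbp or Gp9 and 1.54 points for Pf4 (exact permutation p = 1 for both). The CTC groups were small, from 3 cells in replicate 1 to 15 in replicate 3. Tissues were mixed unlike in 2 samples. Replicate 5 had 4 CTC of blood and 10 of lung, against 39 and 5 DP cells. Replicate 3 had 11 and 4 CTC, against 21 and 1 DP cells. Ppbp and Gp9 were seen in no tumor-high lung cell of either class. The part of tissue in the differences of those 2 samples was not tested, and the cells of replicates 1, 2 and 6 were all of blood.

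**Figure D4:**
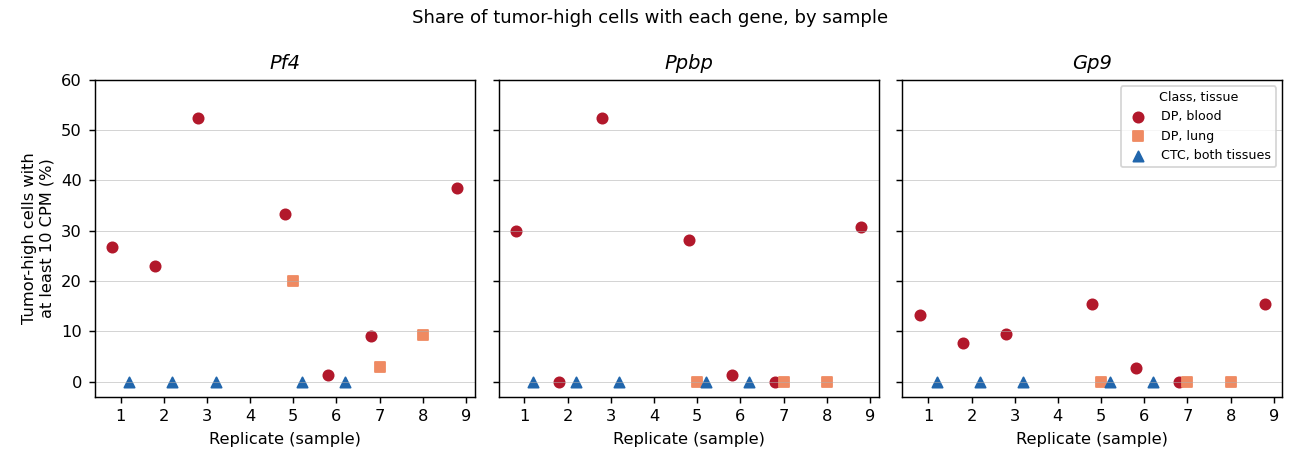
Share of tumor-high cells with at least 10 CPM of Pf4, Ppbp or Gp9, in percent, by sample (replicates 1 to 9), for DP cells of blood (circles), DP cells of lung (squares) and CTC of both tissues (triangles); groups of 1 cell are left out. CTC stand at 0% in all 5 samples, and for Ppbp and Gp9 lung DP cells stand at 0% in all 3 samples shown.

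The summed counts showed the same direction. Over the tumor-high CTC of blood, Pf4 had 99 counts, Ppbp 2, Gp9 0 and Gp1bb 0, and the pooled level of Pf4 in tumor-high DP cells of blood was 56.2 times that of CTC of blood. That ratio was 29.9 without replicate 9, which had no CTC, and 88.0 without replicate 6. The pooled Ppbp ratio was 2417 and rests on 2 CTC counts of replicate 3; its interval of 669 to 19961 covers counting error only, and is too narrow where reads without molecular identifiers repeat 1 molecule or where the 2 counts are mates of 1 fragment. Without replicate 3 Ppbp was at least 974-fold higher, and without replicate 9 the ratio was 1611, also on 2 CTC counts (446 to 13307). Against a floor of 3 counts over the group, Gp9 was at least 551-fold higher (at least 357-fold without replicate 3) and Gp1bb at least 282-fold (at least 172-fold without replicate 3 and 176-fold without replicate 9). The Itga2b ratio was 49.4, with all 86 CTC counts in replicate 6. It was 26.9 without replicate 9 and 30.3 without replicate 3, and at least 1687-fold without replicate 6. Cultured B16F10 cells held pooled Itga2b at 5.37 CPM, near the 7.40 CPM of these DP cells. The Clu ratio was 25.2, and ran from 15.7 without replicate 3 to 116 without replicate 5, while that of Itgb3 was 1.46 (1.26 to 1.64). Per sample, tumor-high CTC held Pf4 at 0.0351 CPM (replicate 2) to 0.804 CPM (replicate 3) in the 5 samples, and Ppbp at 0.00670 CPM in replicate 3 and 0 in the other 4. In each of those samples the DP value was the higher one for both genes. A model over all genes (edgeR, quasi-likelihood, p adjusted by Benjamini-Hochberg over all genes, sample as block) called 4 of 11856 genes between tumor-high DP cells and CTC (percent called 0.0337) and none of the 5 members it tested, with 3 members and 711 genes (6.0%) at an unadjusted p under 0.05. Gp9, with no CTC counts, could pass the filter on low counts only through DP cells, so that count of members supports nothing. In such sums fewer cells with a gene and less of it per cell cannot be told apart. Pf4 differed by a log2 of 4.75 ± 1.08 (SE), adjusted p = 0.268 by edgeR, 14.0 ± 16.9 CPM (SD, n = 8 samples) against 0.381 ± 0.294 CPM (n = 5), higher in 5 of 5 samples. Gp9 averaged 2.79 ± 2.78 CPM (n = 8) against 0, higher in 5 of 5 samples (adjusted p = 0.565 by edgeR), and Itgb3 11.98 ± 4.81 CPM against 10.9 ± 4.69 CPM (log2 difference -0.13 ± 0.59). Ppbp, Gp1ba, Gp1bb and Treml1 did not pass the filter on low counts. With no filter, where 0.0203% of genes were called, Ppbp differed by 11.24 ± 2.20 (adjusted p = 0.192 by edgeR), a fitted value that depends on CTC sums at or near 0. Without the sample block the same tool called Pf4 (adjusted p = 0.0440) and Gp9 (0.0393), with 0.455% of all genes called, and DESeq2 called 4 members, with 6.62% of all genes called.

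Over all cells of a class, DP cells stood above CTC for 3 members. The model tested 12595 genes and called 737, a percent called of 5.85, all of them higher in DP, and of the 6 members tested it called Pf4, Ppbp and Gp9. Ppbp and Gp9, at or near 0 in CTC, could pass the filter on low counts only through DP cells, so nothing is read from the share of members called. Pf4 stood at 35.8, 201, 154, 672, 222, 35.1, 259, 85.7 and 198 CPM in DP cells of replicates 1 to 9, each above the highest CTC value of 0.804 CPM, and differed by 8.54 ± 1.11 (SE; adjusted p = 1.6e-05 by edgeR). These sums include other-branch DP cells, where pooled Pf4 stood at 708 CPM, against 9.88 CPM in tumor-high ones. Pooled Ppbp stood at 6.91 CPM in the other branch, where 5 cells held it, and at 6.16 CPM in tumor-high DP cells. Ppbp averaged 7.19 ± 9.14 CPM (SD, n = 9) against 0.00134 ± 0.00300 CPM (n = 5), higher in 5 of 5 samples (adjusted p = 0.00465 by edgeR), and rested on replicates 1, 3, 5 and 9, since it was 0 in replicate 4 and at most 2.22 CPM in the other 4. Gp9 averaged 1.77 ± 1.96 CPM (n = 9) against 0 (n = 5), higher in 5 of 5 samples (adjusted p = 0.0154 by edgeR). The fitted log2 values of Ppbp and Gp9 depend on CTC groups at or near 0; by pooled counts the Ppbp ratio was 3633 on 2 CTC counts (interval 1006 to 29997, counting error only), 1851 without replicate 5 (512 to 15285) and at least 1722-fold without replicate 3, and Gp9 was at least 625-fold higher, or at least 270-fold without replicate 5. The Ppbp call was lost without replicate 3 (adjusted p = 0.0927) and the Gp9 call without replicate 2, 3 or 5 (0.0630, 0.0789 and 0.0632 by edgeR). Clu (107 ± 177 CPM against 1.17 ± 2.07 CPM), Itga2b (5.45 ± 8.86 against 0.171 ± 0.372 CPM) and Itgb3 (13.6 ± 12.2 against 10.8 ± 4.78 CPM) did not pass, with adjusted p of 0.0809, 0.348 and 1 by edgeR. Of 15 further platelet genes tested, 7 were called higher in DP cells, among them Thbs1 (log2 6.19), Ptgs1 (8.42), Selp (8.00) and Rgs18 (11.89). In other-branch DP cells these named genes stood at 1657, 217, 180 and 27.5 CPM pooled, in that order. In tumor-high DP cells they stood at 13.1, 1.60, 0.428 and 0.574 CPM. Between tumor-high DP cells and CTC, 0 of 11 further platelet genes tested were called. Nothing is read from the share of further genes called. Thbs1 and Selp were lower in DP cells than in WBC (log2 -3.35 and -5.05).

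**Figure D5:**
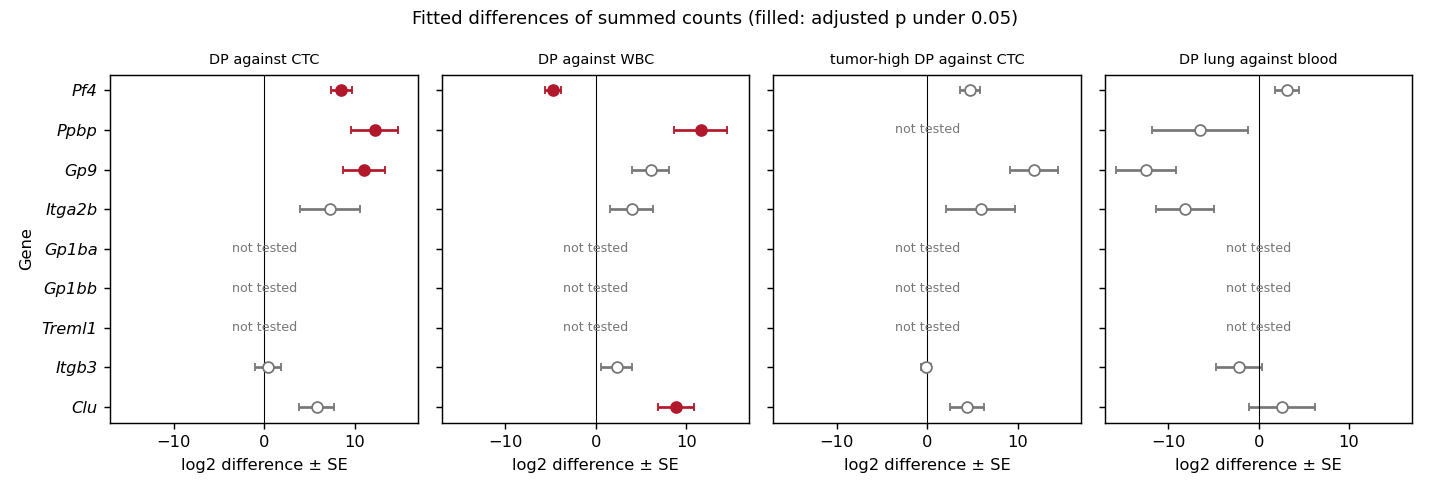
Fitted log2 differences with standard errors for the 9 genes in 4 comparisons of summed counts, positive where the first group is higher; filled points passed an adjusted p of 0.05, open points did not, and genes that did not pass the filter on low counts are marked. Pf4, Ppbp and Gp9 passed for DP against CTC, and Pf4 is the only filled point to the left of 0, for DP against WBC.

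In the other branch Pf4 was seen beside macrophage genes and seldom beside Ppbp or Gp9. It was seen in 46 of 73 other-branch DP cells of blood (63.0%) with a highest value of 9230 CPM, in 42 of 105 of lung (40.0%), in 25 of 46 WBC (54.3%) and in 7 of 21 naive WBC (33.3%). Macrophage genes were seen in 162 of the 178 other-branch DP cells (91.0%) and in 88 of the 88 with Pf4, and likewise in 23 of 25 WBC and 7 of 7 naive WBC with Pf4 (30 of 46 and 9 of 21 over all such cells). Of the 88, 3 had Ppbp or Gp9. Among other-branch DP cells of lung, Pf4 was seen in 6 of 54 cells with alveolar macrophage genes (at least 3 of Chil3, Atp6v0d2, Plet1, Ear2, Car4 and Krt19; 11.1%), in 36 of 44 with macrophage genes and not those (81.8%) and in 0 of 7 with neither. The summed macrophage level had a median of 31267 CPM in other-branch DP cells of blood and 4.89 CPM in tumor-high ones. Ppbp was seen in 5 of these 178 cells, with a highest value of 2093 CPM in 1 lung cell, and Gp9 in 0. Itgb3 was seen in 2 of them. Clu was seen in 2 other-branch cells of blood and 8 of lung, with a highest value of 5548 CPM, above every tumor-high cell, where the highest value was 382 CPM.

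Against WBC, DP cells as a class were lower for Pf4 and higher for Ppbp and Clu. The model called 2586 of 12595 genes, a percent called of 20.5 (17.6 higher in DP and 2.91 lower), and 3 of the 6 members tested. Ppbp, with 1 count in WBC, could pass the filter on low counts only through DP cells, and Clu had only 25 counts in WBC. Nothing is therefore read from the share of members called. Pf4 stood at 589, 3030, 3207, 433, 308 and 3360 CPM in WBC of replicates 1 to 6, against 35.8, 201, 154, 672, 222 and 35.1 CPM in DP cells of the same samples, lower in 5 of 6 (log2 -4.71 ± 0.88, adjusted p = 0.000956 by edgeR); replicate 4 was the exception. Ppbp averaged 7.19 CPM against 0.00139 ± 0.00340 CPM (n = 6), higher in 5 of 6 samples (adjusted p = 0.00788 by edgeR), a call lost without replicate 1 (0.0515) or 3 (0.0645). Clu averaged 107 CPM against 0.0831 ± 0.139 CPM, higher in 6 of 6 samples (log2 8.86 ± 1.97, adjusted p = 0.00325 by edgeR). Pooled Clu stood at 238 CPM in other-branch DP cells, from 10 cells of 178, and at 10.2 CPM in tumor-high ones. With sums of at least 5 cells none of these 3 calls remained (adjusted p = 0.225 for Ppbp, 0.126 for Pf4 and 0.0671 for Clu by edgeR), and 294 of all genes were called. Within the other branch Pf4 was the 1 member tested and differed between DP and WBC by a log2 of -1.36 ± 0.65 (adjusted p = 0.627 by edgeR; 0 of 9834 genes called, percent called 0.0, with 776, or 7.89%, at an unadjusted p under 0.05 and 1751 called by DESeq2). CTC stood below WBC for Pf4 alone (log2 -13.26 ± 1.30, 1 of 6 members, percent called 26.6).

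Among tumor-high DP cells the members other than Pf4, Itgb3 and Clu were seen in blood and in no lung cell, and edgeR called none of them between the tissues. None of Ppbp, Gp9, Itga2b, Gp1ba, Gp1bb and Treml1 was seen in any of 72 tumor-high DP cells of lung (upper limit of the interval 4.99% for each), against 52 of 200 cells of blood with at least 1. Of 22 cultured B16F10 cells, 4 held 1 of these genes, Itga2b or Gp1ba. The summed counts in lung were 4 for Ppbp and 0 for Gp9 among 1526 Mcounts. Pf4 was seen in 6 of 72 cells of lung (8.33%), in 1, 1, 1 and 3 cells of replicates 3, 5, 7 and 8, whose summed levels were 18.2, 4, 7.50 and 15.5 CPM from 1, 5, 34 and 32 cells. Tissue and sample are largely the same division here. Library names begin with C in replicates 1 to 6 and with P in replicates 7 to 9, letters that the labels do not explain. Most tumor-high DP cells of lung were of replicates 7 and 8, and most of blood were of replicates 1 to 6. Tissue and these letters can thus hardly be told apart. All CTC, and all WBC of tumor samples, were of replicates 1 to 6. Replicates 5 and 7 alone had at least 2 tumor-high DP cells of both tissues, with Ppbp or Gp9 in 12 of 39 blood and 0 of 5 lung cells of replicate 5 and in 0 of 11 and 0 of 34 of replicate 7. The model called 0 of 13005 genes between lung and blood in tumor-high DP cells (percent called 0.0, with 450 genes, 3.46%, at an unadjusted p under 0.05 and 443 called by DESeq2), and 2 of 9 members, Itga2b and Gp9, had an unadjusted p under 0.05. DESeq2 called 3 members. Over all DP cells edgeR called 1 of 12306 genes (percent called 0.00813) and no member, with 3 of 6 members and 7.67% of genes at an unadjusted p under 0.05. DESeq2 called 4 members there, and over the alternatives the number of all genes called ran from 0 to 2646. In tumor-high cells of lung Gp9 had 0 counts and Itga2b 10, so both could pass the filter on low counts only through blood. Gp9 had no counts in any DP cell of lung. Nothing is therefore read from these counts of members. Over all DP cells Pf4 stood at 336 ± 260 CPM in lung (SD, n = 7) and 124 ± 153 CPM in blood (n = 7), a log2 of 3.15 ± 1.34 (adjusted p = 0.646 by edgeR). Gp9 averaged 2.95 ± 2.30 CPM in blood and had no counts in lung, lower in 5 of 5 samples with both tissues (adjusted p = 0.639 by edgeR).

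The controls had 1 sample each and were not tested. In Duplike, whose cells all lay in the tumor-high branch, Pf4 was seen in 6 of 24 cells (25.0%, 9.77 to 46.7), Ppbp in 3, Gp9 in 4, Itga2b in 2 and Gp1bb in 1. Ppbp or Gp9 was seen in 6 of 24 Duplike cells, 3 of them with Pf4, and 2 other Pf4 cells had macrophage genes. Pooled levels in Duplike were 9.84 CPM of Pf4, 5.35 of Ppbp and 3.45 of Gp9, against 9.69, 8.42 and 2.88 CPM in tumor-high DP cells of blood. In PltLike, Pf4 was seen in 1 of 24 cells and Ppbp in 1, at 13.3 and 26.9 CPM, and Gp9 in 0, with pooled levels of 1.05, 0.715 and 0.187 CPM. In CDP, Pf4 was seen in 3 of 18 cells, all 3 with macrophage genes, and Ppbp and Gp9 had 0 counts. In naive WBC, Itga2b was seen in 1 cell at 791 CPM, and Ppbp and Gp9 had 0 counts among 26.6 Mcounts. In cultured B16F10 cells Pf4 had 14 counts among 328 Mcounts and Ppbp, Gp9, Gp1bb, Treml1 and Clu had 0.

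The genes whose levels ran most like those of Pf4, Ppbp and Clu over the 450 DP cells were different genes for each. Likeness is the Pearson correlation of log2(CPM + 1), given as a description over cells that share samples and differ in depth, among 11429 protein-coding genes. For Pf4 they included C1qc (0.811), C1qa (0.796) and C1qb (0.780), which encode complement C1q chains of macrophages, and Adam8 (0.717). Within tumor-high DP cells of blood alone these 4 stood between 0.221 and 0.290. For Ppbp they included Tubb1 (0.393), Ctla2a (0.385), Alox12 (0.329) and Hba-a1 (0.308), and Tubb1 and Alox12 are on the further platelet list. Among the members Ppbp ran most with Gp9 (0.477), Gp1bb (0.355), Itga2b (0.338) and Treml1 (0.316), and its correlation with Pf4 was 0.0884. For Clu they were Nkain4 (0.610), Smpd3 (0.589), Upk3b (0.580), Wt1 (0.552) and Bicc1 (0.545), none of them on a platelet list and with Upk3b and Wt1 known from mesothelial cells, and in tumor-high DP cells of blood they stood between 0.0714 and 0.211. Clu and Ppbp correlated at 0.140.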

How the data were processed

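The submitters' processing notes name Trim Galore, HISAT2, SAMtools, featureCounts, BWA, Picard and the build mm10, with neither order nor role. Versions of the tools: not given in the sources used here. What the authors deposited is a table of raw counts for 21138 genes in 648 cells, not normalized. DNA data were not analysed here. Of nonzero values 56.7% were even and values of 2 outnumbered values of 1 by 3.59 times, so a count may not be 1 fragment. Each cell's class, tissue and sample came from its name in the authors' deposited header table. The sorted class rests on unnamed markers.

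The 9 genes, the 14 lists of 113 genes, the tests and the alternatives were chosen with earlier results of these data known. The rule named every member, up to 4 further platelet genes per comparison, the 5 genes most like Pf4, Ppbp and Clu, and non-members where a result turned on them; Clec1b, Alox12, Tubb1, Gata1, Nfe2, Gfi1b, Gng11 and Pear1 were named in the account of cells after their values were seen. Some genes that the rule or the lists hold are not reported here by name. Branches came from Ward clustering of log2(CPM + 1) of 2000 variable genes in 15 principal components; an alternative set by a melanocyte score moved 12 cells. No cell was left out of the main analysis and no doublet caller was run.

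Cells of 1 class, tissue and sample, where there were at least 2, had their counts added up, and the sums were tested with edgeR 4.0.16 and limma 3.58.1 in R 4.3.3 (TMM, filterByExpr, quasi-likelihood test, sample as block, tissue as a term, Benjamini-Hochberg over all genes at 0.05). Sample means are CPM of the summed counts. The classes were sorted from the same samples, which is where the pairing comes from; deviations of classes of the same sample had a median correlation of 0.0231 over 41 pairs (-0.0530 to 0.251), against -0.00485 over 246 pairs of different samples, on 6858 genes. Shares of cells were compared by exact sign-flip permutation over samples. Alternatives were RLE and TMMwsp scaling, DESeq2 1.42.0, no filter, no block, at least 5 cells, blood alone, the melanocyte score, 1 and 100 CPM, 5 macrophage genes, thinning to 500000 counts (14 shallower cells left out) and each sample left out. Fits were tested on simulated data, with 1 spread for all genes. Changes of a log2 of 2 were recovered in 0% of changed genes in each comparison. At a log2 of 6 the share was 99.5% for tumor-high DP against CTC and 57.5% for DP against CTC. It was 24.5% for tumor-high DP lung against blood, 19.5% for DP lung against blood and 4% for other-branch DP against WBC. The members need not share that spread. In tumor-high DP against CTC, Gp9 was not called at a fitted log2 of 11.78 ± 2.68 (SE; adjusted p = 0.565 by edgeR). The simulated shares are therefore not carried over to the members. A lack of calls in any of these comparisons thus says little about the absence of change. Python 3.11.15 with NumPy 2.4.6, pandas 2.3.3, SciPy 1.17.1 and matplotlib 3.10.9 was used. Gene models are GENCODE vM21 (GRCm38), which held 18884 of the symbols.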

Additional observations from a re-analysis of the deposited data

Results flagged for a closer look

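Of 34 groups of 4 to 10 samples, 9 had a sample that a rule on the gap to its neighbour set far from the others. The rule's chance rate of about 1 in 20 assumes normal values and does not hold for groups mostly at 0. Where 1 sample has counts and the rest have 0, the rule flags it however few the counts. Nothing is therefore read from the number flagged. In DP cells, Itgb3 was lowest in replicate 4 at 0.0245 CPM of the summed counts, against 5.55 to 40.0 CPM in the other 8 samples. In WBC, Treml1 was highest in replicate 5 at 14.5 CPM, which came from 1 lung cell, and 0 in the other 5 samples. In CTC, Itga2b was highest in replicate 6 at 0.836 CPM, against 0 to 0.0194 CPM. The other 6 are low values beside samples at or near 0: Ppbp in CTC of replicate 3 (0.00670 CPM), Gp1bb in CTC of replicate 3 (0.00335 CPM), Treml1 in CTC of replicate 5 (0.00971 CPM), Ppbp in WBC of replicate 3 (0.00832 CPM), Gp9 in WBC of replicate 5 (0.0727 CPM) and Clu in WBC of replicate 4 (0.360 CPM).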

How the results depend on the processing

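Of 207 values of the counts of called members, counts of cells and shares under the alternatives, 184 stayed within the limits set for them and 23 moved; of 851 values of single genes and other counts 755 stayed and 7 changed sign. The pooled ratios without each sample, chosen after seeing the data, are among the latter. Counts of called members that moved were, with sums of at least 5 cells, 1 in DP against CTC and 0 in DP against WBC; in blood cells alone, 5 in DP against WBC; and with DESeq2, 4 in tumor-high DP against CTC, 4 in DP lung against blood and 3 in tumor-high lung against blood. With no replicate block the calls were 2 in CTC against WBC, 2 in tumor-high DP against CTC and 1 in DP lung against blood; the pairing by sample changed the count in no other comparison by over 1.5 times. Leaving out each sample in turn gave 1 to 4 calls in DP against CTC, 2 to 3 in DP against WBC, 1 in CTC against WBC and 0 in the other comparisons. All genes called also moved over the alternatives, from 160 to 1469 in DP against CTC and from 294 to 5281 in DP against WBC. They ran from 0 to 785 in tumor-high DP against CTC, 0 to 2646 in DP lung against blood and 0 to 443 in tumor-high lung against blood. Pf4 kept its call in DP against CTC under all 16 alternatives (log2 7.66 to 9.27), and Gp9 lost it also with DESeq2 (adjusted p = 0.0663) and with at least 5 cells (0.345), as did Ppbp with at least 5 cells (0.291). Clu was called there with no replicate block (0.0243) and with DESeq2 (0.000243), and Itga2b with DESeq2 (0.000592).

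At 1 CPM the tumor-high DP cells with Pf4 numbered 84, with 11 beside Ppbp and Gp9, 26 beside macrophage genes and 29 beside neither. At 100 CPM, a limit set for the partner genes too, they numbered 5, with 0 beside Ppbp and Gp9, 1 beside either, 4 beside macrophage genes and 0 beside neither. At that limit 0 Duplike and 0 PltLike cells had Ppbp or Gp9. Without single samples the ranges were 34 to 47 with Pf4, 5 to 7 with both genes, 15 to 24 with either, 6 to 9 with macrophage genes and 11 to 17 with neither; the lowest count with either gene (15) was without replicate 5 and the lowest with neither (11) without replicate 3. The shares of DP cells ranged from 17.8% to 29.6% for Ppbp or Gp9 and from 20.7% to 34.0% for Pf4.

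Signs changed for values that passed no test: Itgb3 in DP against CTC without replicate 2 (log2 -0.84, with a range without single samples of -0.84 to 0.78), Ppbp in CTC against WBC without replicate 3 (1.498, range -0.76 to 1.498), Itgb3 in tumor-high DP against CTC with at least 5 cells (0.48) and without replicate 3 (0.0349, range -0.24 to 0.0349), Ppbp (1.31) and Itgb3 (1.18) in DP lung against blood with no replicate block, and Pf4 in tumor-high lung against blood with no replicate block (-0.51). The cause was not tested. The tumor-high lung and blood fit could not be made without replicate 5 or 7. The median of all genes in DP against WBC shifted by 1.17 with TMM, 0.95 with RLE and 1.21 with TMMwsp. Naive WBC had the least depth, 26.6 Mcounts in all, and the CTC groups held 3 to 15 cells.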
